A study of Mus musculus with 23 samples.

Results

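The Gimap genes form one cluster of small GTPase genes, and their RNA was followed here in normal mouse thymus and in T-cell acute lymphoblastic leukemia (T-ALL), group by group and tumor by tumor. The members were taken by gene name, with earlier results of these data known, as Gimap1, Gimap3, Gimap4, Gimap5, Gimap6, Gimap7, Gimap8 and Gimap9, and all 8 were found among the 24475 genes of the table. RNA sequencing covered 23 samples. The controls were 6 thymuses of normal C57BL/6 mice. The remaining samples were unfractionated spleens of Rag2-/-Il2rg-/- BALB/c hosts in which T-ALL had developed after a newborn thymus was placed under the kidney capsule, 14 with a wild-type donor of the congenic B6.Ly5.1 line (WT T-ALL) and 3 with a Notch3-deficient donor (Notch3 KO T-ALL), in which a β-galactosidase gene had been inserted into the first coding exon of Notch3. The strain background of the Notch3-deficient donors is not stated in the sources used here. Tissue, host strain and host genotype part with the groups, so leukemia cannot be told apart from spleen against thymus in either comparison with the controls. Each library is named by the number in its label, and replicate error is the spread between libraries, which may be technical where the labels do not name separate animals.

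GIMAP proteins (GTPases of the immunity-associated protein family) share an AIG1-type GTP-binding domain, and several of them sit on membranes of lysosomes, mitochondria or the Golgi. They are expressed mainly in lymphocytes, where they control cell survival. Gimap levels rise as thymocytes mature, and loss of Gimap5 depletes peripheral T cells. In the bulk samples used here, fewer cells of a type and less RNA per cell cannot be told apart.

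On the GRCm38.p6 assembly the 8 genes lie within 123.666 kb at chr6:48647186-48770851, in the order Gimap8, Gimap9, Gimap4, Gimap6, Gimap7, Gimap1, Gimap5 and Gimap3. Gimap6 and Gimap3 are on the minus strand and the other members on the plus strand. All are annotated as protein coding. GENCODE also annotates a readthrough gene, Gm28053, over Gimap7, Gimap1 and Gimap5 on the same strand, and Gimap1os on the opposite strand of Gimap1. Of the 100-base windows of Gimap1 transcripts, 31.4% occur identically, on either strand, in one of these neighbors. The effect of this on the values of Gimap1 was not tested. The shared part was 1.65% for Gimap3, all with Gimap5, and 2.26% for Gimap5, while no window of the other members was shared.

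Values were used as deposited and read as log2(scaled RPKM + 1), although the header names no unit. RPKM is the read number scaled by transcript length and sequencing depth, and each library was scaled to a 75th percentile of 10. Differences are between group means on this scale, which understates the change of genes with low values. A gene was called at a Benjamini-Hochberg adjusted p under 0.05 with limma over all genes tested, and all 8 members passed the filter on low values. The table holds no read counts, so the depth of single libraries is not known from it, and between 10154 and 11011 genes per library reached a scaled RPKM of 1. Notch3, the targeted gene, was at 3.22, 2.59 and 3.74 in Notch3 KO T-ALL 1, 2 and 3, where WT T-ALL ranged from 3.17 to 5.78 and thymus from 2.62 to 4.29. The mean was lower by 1.56 in Notch3 KO T-ALL than in WT T-ALL (two-sided exact permutation test, unadjusted p = 0.00441), but the groups overlapped, and a value over the whole gene cannot tell a transcript with the insertion from an intact one. Pan-T-cell genes were high in every library, with the mean of 10 of them between 7.96 and 8.20 for thymus, between 6.90 and 8.03 for WT T-ALL and between 7.05 and 7.62 for Notch3 KO T-ALL.

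Every one of the 8 group means was lower in WT T-ALL than in thymus and lower again in Notch3 KO T-ALL. In WT T-ALL, 5 of the 8 genes fell against thymus (Gimap3, Gimap8, Gimap6, Gimap1 and Gimap9), where 22.3% of all genes tested were called lower and 29.3% higher. In Notch3 KO T-ALL, 7 fell and Gimap4 missed the threshold, beside 16.3% of all genes called lower and 21.2% higher. The count was 4 (Gimap1, Gimap3, Gimap6 and Gimap8) without Notch3 KO T-ALL 2, and likewise 4 with the thymus libraries averaged in the pairs that deviate together (1 with 3, 2 with 4 and 5 with 6). The median difference of the members was -0.94 for WT T-ALL and -1.57 for Notch3 KO T-ALL, while the median over all genes tested was 0.08 in both comparisons. Without Notch3 KO T-ALL 2 the members' median for Notch3 KO T-ALL was -1.04, beside 0.11 over all genes. These comparisons share the 6 thymus libraries. The summed scaled RPKM of the 8 genes had a median of 533.0 in thymus (457.1 to 611.0), 231.6 in WT T-ALL (134.8 to 488.1) and 215.6 in Notch3 KO T-ALL (88.3 to 241.8), and WT T-ALL 48 alone reached the thymus range.

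**Figure D1:**
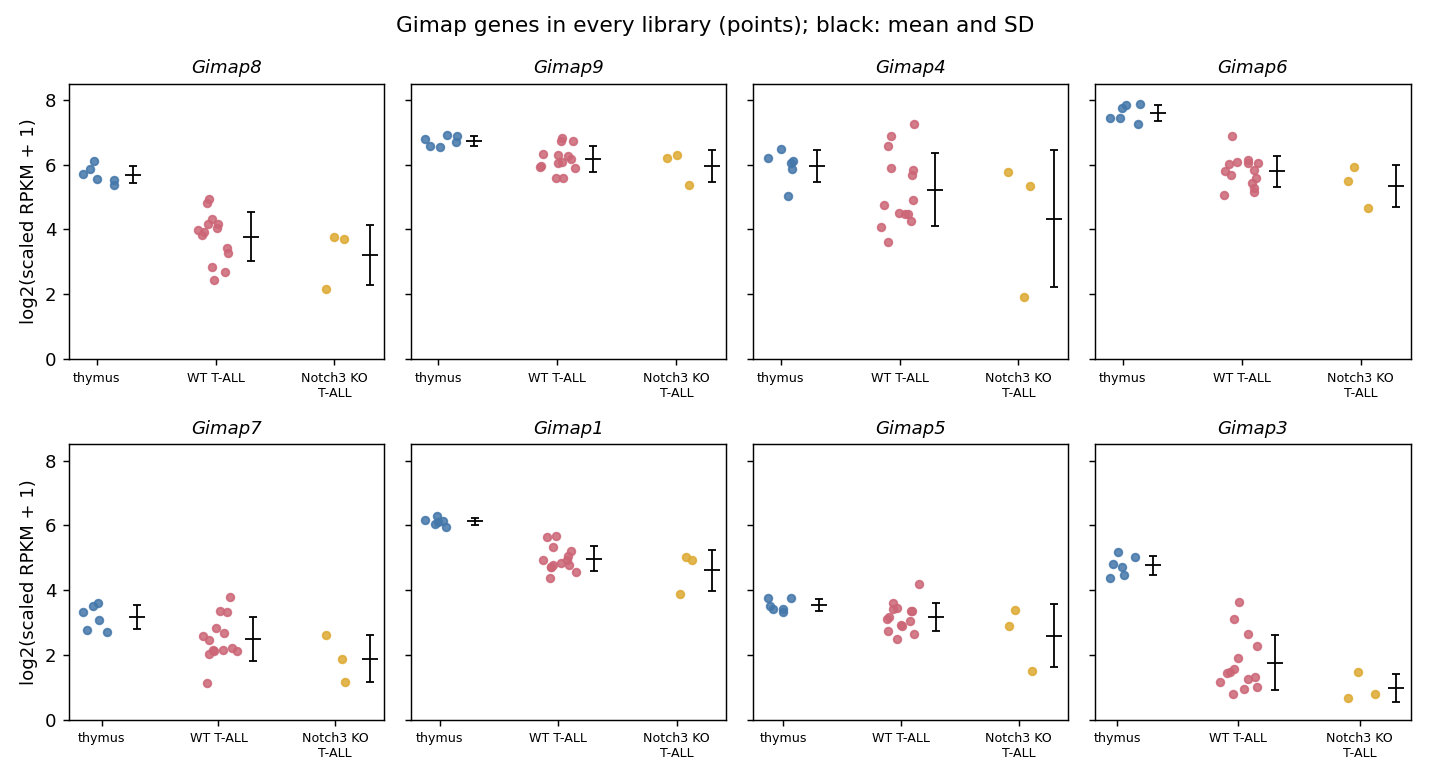
Values of the 8 Gimap genes in each library, in chromosomal order. The vertical axis is log2(scaled RPKM + 1), points are libraries (6 thymus, 14 WT T-ALL, 3 Notch3 KO T-ALL) and black bars give mean and SD. The points of thymus and WT T-ALL are separate for Gimap8, Gimap6, Gimap1 and Gimap3 and overlap for the other 4 genes.

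Per length, Gimap6 was the most abundant member in thymus at a scaled RPKM of 194.8 ± 34.0 (SD, n = 6), followed by Gimap9 at 105.9 ± 11.6, Gimap1 at 68.8 ± 5.67, Gimap4 at 63.8 ± 18.6, Gimap8 at 51.4 ± 10.3, Gimap3 at 26.7 ± 5.87, Gimap5 at 10.6 ± 1.54 and Gimap7 at 8.28 ± 2.34. In that order the libraries of Gimap1 and Gimap4 overlapped, as did those of Gimap4 and Gimap8 and those of Gimap5 and Gimap7. WT T-ALL had another order, led by Gimap9 at 73.7 ± 20.6 (SD, n = 14), with Gimap6 at 57.4 ± 21.2, Gimap4 at 49.2 ± 42.7, Gimap1 at 31.4 ± 9.14, Gimap8 at 14.4 ± 7.51, Gimap5 at 8.42 ± 3.16, Gimap7 at 5.28 ± 3.14 and Gimap3 at 3.08 ± 3.05. There the ranges of all neighbors in the order overlapped. Gimap3, above Gimap5 and Gimap7 in thymus, was last in WT T-ALL.

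Gimap3 and Gimap5 are close paralogs that stand side by side at the end of the cluster. Gimap5 is a lysosomal membrane protein required for T-cell survival, and Gimap3 is its relative on internal membranes, known to interact with Bcl2 family proteins. Their promoters are printed with that of Gimap6, the most abundant member in thymus, to show the start regions of genes with a large and a small difference. Each runs from 250 bases before to 50 after the RefSeq start in GRCm38.p6, 5′ to 3′ on the strand of the gene, at chr6:48770802-48771101 (minus) for Gimap3, chr6:48745947-48746246 (plus) for Gimap5 and chr6:48708195-48708494 (minus) for Gimap6. Capitals mark matches to motifs searched on both strands: TGTGGT for Runx factors, TGGGAA for the Notch partner CSL, GGAAGT for Ets factors and TGTTTAC for Foxo factors.
Gimap3: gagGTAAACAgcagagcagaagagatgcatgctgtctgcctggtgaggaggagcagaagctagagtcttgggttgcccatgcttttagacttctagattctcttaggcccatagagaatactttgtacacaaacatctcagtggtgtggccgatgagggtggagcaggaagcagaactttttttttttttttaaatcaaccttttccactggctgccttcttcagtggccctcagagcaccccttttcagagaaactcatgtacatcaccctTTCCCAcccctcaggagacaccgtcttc
Gimap5: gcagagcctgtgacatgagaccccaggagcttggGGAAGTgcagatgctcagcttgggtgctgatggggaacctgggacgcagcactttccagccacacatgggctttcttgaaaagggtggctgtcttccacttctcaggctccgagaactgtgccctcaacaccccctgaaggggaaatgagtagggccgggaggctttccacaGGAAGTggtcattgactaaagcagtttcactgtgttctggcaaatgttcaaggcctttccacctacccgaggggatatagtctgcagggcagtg
Gimap6: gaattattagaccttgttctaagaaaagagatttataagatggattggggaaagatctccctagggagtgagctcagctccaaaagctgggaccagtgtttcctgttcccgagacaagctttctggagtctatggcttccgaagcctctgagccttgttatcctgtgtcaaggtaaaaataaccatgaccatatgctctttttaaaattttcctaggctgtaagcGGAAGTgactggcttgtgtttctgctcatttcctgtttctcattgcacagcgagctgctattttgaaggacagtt

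Gimap3 held a Foxo motif at bases 4 to 10 and a CSL motif at bases 273 to 278 of its window, both on the opposite strand. Gimap5 held Ets motifs at bases 35 to 40 and 207 to 212, and Gimap6 held one at bases 226 to 231. All 8 members matched a RefSeq promoter, Gimap8 with 2 windows. Over these 9 windows the Runx motif was found in 3 (Gimap1, Gimap4 and Gimap7), the CSL motif in 1, the Ets motif in 4 (Gimap1, Gimap5, Gimap6 and Gimap9) and the Foxo motif in 1. Among 32817 mouse promoters of the same length, the motifs were present in 16.8%, 25.6%, 23.8% and 3.65%, in the same order. CSL and Ets matches can overlap, but no member window held both. A match is a description of letters, and no binding was measured.

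Gimap3 was at 5.03, 4.72, 4.47, 5.17, 4.39 and 4.80 in thymus 1 to 6. In WT T-ALL it ran from 0.81 (WT T-ALL 14) to 3.62 (WT T-ALL 110), with a median of 1.47. Notch3 KO T-ALL 1, 2 and 3 had 1.48, 0.69 and 0.80. No T-ALL library reached the lowest thymus value, and WT T-ALL 110 and 48 were the only ones above 3. The difference was -3.01 for WT T-ALL (SE 0.33, limma adjusted p = 1.51e-07, lower in 14 of 14 libraries) and -3.78 for Notch3 KO T-ALL (SE 0.48, adjusted p = 3.05e-06, lower in 3 of 3). Of all genes tested, 0.302% fell further in WT T-ALL and 0.0755% in Notch3 KO T-ALL.

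Gimap5 was at 3.75, 3.32, 3.76, 3.41, 3.43 and 3.51 in thymus 1 to 6. WT T-ALL ranged from 2.49 (WT T-ALL 108) to 4.18 (WT T-ALL 48), with a median of 3.14, and 8 of the 14 libraries lay below all thymus values and 1 above them. The difference of -0.36 did not pass the test (SE 0.22, adjusted p = 0.180, 95% confidence interval -0.82 to 0.10). Notch3 KO T-ALL 1, 2 and 3 had 2.89, 1.51 and 3.38, of which the last was inside the thymus range. Their difference of -0.94 passed (SE 0.32, adjusted p = 0.0251), but not without Notch3 KO T-ALL 2, when it was -0.40 (adjusted p = 0.320). It did not pass with thymus libraries averaged in pairs either.

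The balance between both paralogs therefore differed between groups within single libraries. Gimap3 minus Gimap5 was 1.23 ± 0.37 (SD, n = 6) in thymus, with all libraries between 0.70 and 1.76. It was -1.41 ± 0.64 (n = 14) in WT T-ALL, from -2.18 to 0.19, with 1 library above 0. In Notch3 KO T-ALL it was -1.60 ± 0.89 (n = 3), from -2.58 to -0.82. The change was -2.65 for WT T-ALL (two-sided exact permutation test, unadjusted p = 2.58e-05, the smallest the test can give) and -2.84 for Notch3 KO T-ALL (exact p = 0.0119, likewise the smallest). With thymus libraries averaged in pairs, the exact permutation p was 0.00147 for WT T-ALL and 0.10 for Notch3 KO T-ALL, again the smallest each design allows, so the latter cannot reach 0.05. Between the T-ALL groups it was -0.19 (exact permutation p = 0.656). This contrast of both genes was chosen with their values known.

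Gimap1, which is needed for survival of mature lymphocytes, was the least variable member in thymus. Its values there were 6.16, 6.06, 6.30, 5.95, 6.11 and 6.15. WT T-ALL ran from 4.38 (WT T-ALL 108) through a median of 4.88 to 5.67 (WT T-ALL 7), and Notch3 KO T-ALL had 5.03, 3.88 and 4.93. All T-ALL libraries were below all thymus libraries, by -1.15 on average in WT T-ALL (SE 0.18, adjusted p = 1.38e-05) and -1.51 in Notch3 KO T-ALL (SE 0.26, adjusted p = 9.83e-05).

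Gimap6, which takes part in autophagy, was at 7.88, 7.45, 7.74, 7.25, 7.42 and 7.83 in thymus 1 to 6. Its WT T-ALL values lay between 5.06 (WT T-ALL 3) and 6.88 (WT T-ALL 48), with a median of 5.81. Notch3 KO T-ALL 1 to 3 had 5.92, 4.65 and 5.48. Again no T-ALL library reached thymus. The differences were -1.80 (SE 0.21, adjusted p = 4.34e-07) and -2.25 (SE 0.31, adjusted p = 8.85e-06).

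Gimap8, the longest protein of the family with repeated GTP-binding domains, was at 5.55, 5.37, 5.72, 5.52, 5.85 and 6.13 in thymus. WT T-ALL spread from 2.43 (WT T-ALL 111) to 4.94 (WT T-ALL 48) around a median of 3.94, and Notch3 KO T-ALL had 3.71, 2.15 and 3.77. No T-ALL library reached thymus, while the T-ALL groups overlapped. The difference of Gimap8 was -1.92 in WT T-ALL (SE 0.31, adjusted p = 2.99e-05) and -2.48 in Notch3 KO T-ALL (SE 0.45, adjusted p = 0.000217).

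Complete separation from thymus was thus found in WT T-ALL for 4 members (Gimap1, Gimap3, Gimap6 and Gimap8), which 6.64% of all genes tested showed in the same direction. In Notch3 KO T-ALL it was found for 6 members (these 4, Gimap7 and Gimap9), where 18.4% of all genes did so with only 3 libraries.

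Gimap9 had the narrowest difference of the called genes. In thymus 1 to 6 it was at 6.88, 6.69, 6.92, 6.54, 6.58 and 6.79, and WT T-ALL ranged from 5.58 (WT T-ALL 111) to 6.83 (WT T-ALL 36), median 6.12. Among the 14 WT T-ALL libraries 11 were below all thymus libraries, and WT T-ALL 36, 48 and 202 were inside the thymus range. The difference was -0.56 (SE 0.17, adjusted p = 0.00972). The call was lost with thymus libraries averaged in pairs (adjusted p = 0.0791) and with a replicate block over libraries that share a label number (adjusted p = 0.197). Centering on pan-T genes made the difference 0.05, where the median of all genes was 0.68. Notch3 KO T-ALL had 6.19, 5.38 and 6.29, all below thymus, with a difference of -0.78 (SE 0.25, adjusted p = 0.0179) that was -0.49 (adjusted p = 0.160) without Notch3 KO T-ALL 2. That call was also lost with thymus libraries averaged in pairs.

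Gimap4, known to promote death of T cells, was the member that varied most among tumors. Thymus values were 6.47, 6.06, 6.20, 6.11, 5.03 and 5.88. WT T-ALL reached from 3.60 (WT T-ALL 3) to 7.24 (WT T-ALL 48) with a median of 4.83, so 8 libraries were below all thymus values and 3 (WT T-ALL 5, 48 and 110) above them. Notch3 KO T-ALL 1 and 3 were inside the thymus range at 5.76 and 5.34, and Notch3 KO T-ALL 2 was at 1.90. Neither difference passed the test, at -0.73 (SE 0.52, adjusted p = 0.247, 95% interval -1.82 to 0.35) and -1.62 (SE 0.76, adjusted p = 0.0967). Leaving out Notch3 KO T-ALL 1 took the second to -2.33, which passed (adjusted p = 0.0434), and leaving out Notch3 KO T-ALL 2 took it to -0.40 (adjusted p = 0.692). The SD among WT T-ALL libraries was 1.13, above that of 95.8% of all genes tested, while Gimap1 (SD 0.38) and Gimap9 (SD 0.39) were near the median of 0.41.

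Gimap7, which can activate the GTPase activity of other family members through dimers, was the least abundant gene of the cluster in thymus. It was at 3.61, 3.34, 3.51, 3.09, 2.78 and 2.72 there. In WT T-ALL it ran from 1.13 (WT T-ALL 111) to 3.80 (WT T-ALL 48), with a median of 2.33, 10 libraries below all thymus values and 1 above. The difference of -0.67 just missed the threshold (SE 0.29, adjusted p = 0.0520), and it passed when any of WT T-ALL 4, 7, 48 or 110, thymus 5 or 6, or Notch3 KO T-ALL 1 or 2 was left out (adjusted p = 0.0170 to 0.0495). Notch3 KO T-ALL had 2.63, 1.17 and 1.86, with a difference of -1.29 (SE 0.42, adjusted p = 0.0176) that was lost without Notch3 KO T-ALL 2 (-0.93, adjusted p = 0.121) or 3 (-1.28, adjusted p = 0.0598). With thymus libraries averaged in pairs the Notch3 KO T-ALL call was lost too.

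**Figure D2:**
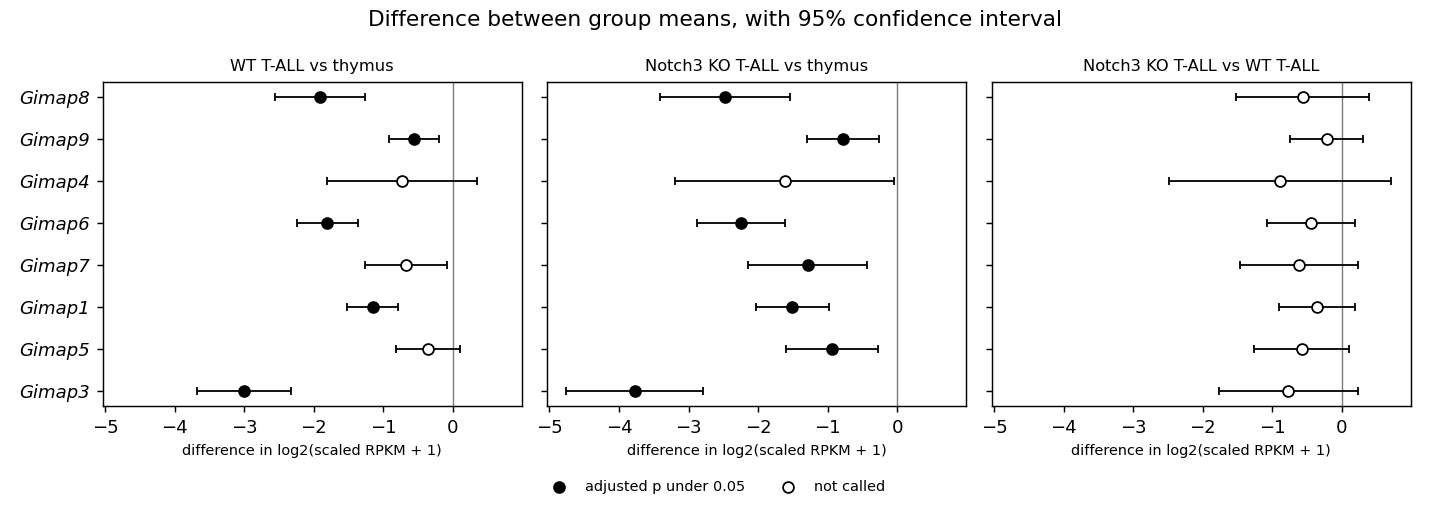
Differences of group means for the 8 Gimap genes in the 3 comparisons, first named group minus second. The horizontal axis is the difference in log2(scaled RPKM + 1), bars are 95% confidence intervals from limma, and filled points have an adjusted p under 0.05. Filled points number 5, 7 and 0 in the 3 panels, and all 24 points lie below 0.

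Within single libraries the size of the difference varied from member to member. Relative to the mean of the other 7 members, Gimap3 was lower by 1.98 in WT T-ALL than in thymus, with WT T-ALL libraries between -3.71 and -1.27 and thymus between -1.27 and -0.24. The change on this relative scale was -0.73 for Gimap8 and -0.60 for Gimap6, and it was 0.14 for Gimap1, 0.62 for Gimap4, 0.69 for Gimap7, 0.82 for Gimap9 and 1.05 for Gimap5. Positive values do not mean a rise, since the mean of the other 7 holds Gimap3 and itself went down, and these values are given as a description. In Notch3 KO T-ALL the relative change was -2.22 for Gimap3, -0.74 for Gimap8, -0.48 for Gimap6, and 0.24 to 1.20 for the other 5.

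No member was called between Notch3 KO T-ALL and WT T-ALL, in a comparison of 11677 genes of which 0.0257% were called lower and 0.591% higher. None reached an unadjusted p under 0.05, with limma (the lowest p was 0.0895, for Gimap5) or with the exact permutation test (p = 0.128 to 0.441). All 8 differences were below 0, from -0.22 for Gimap9 to -0.89 for Gimap4, with a median of -0.57 against -0.003 over all genes. The intervals were wide, for example -2.49 to 0.71 for Gimap4 and -1.77 to 0.23 for Gimap3, and both reach further below 0 than above it. Notch3 KO T-ALL 2 was below every WT T-ALL library for 7 of the 8 members. Without it the median was -0.04, beside 0.04 over all genes. The differences of Gimap1, Gimap4 and Gimap9 were then 0.01, 0.33 and 0.07, those of Gimap5, Gimap6 and Gimap8 were -0.04, -0.09 and -0.04, and those of Gimap3 and Gimap7 were -0.62 and -0.25.

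Tumor by tumor, the mean log2 value of the 8 members ran from 3.37 to 5.32 in WT T-ALL. WT T-ALL 48 was the highest, inside the thymus range of 5.20 to 5.67, and had the highest WT T-ALL value for 5 members. It kept 4 members below all thymus libraries (Gimap1, Gimap3, Gimap6 and Gimap8), had 3 above them (Gimap4, Gimap5 and Gimap7) and had Gimap9 within their range. WT T-ALL 111 was the lowest, with the lowest value for 3 members. All 8 members were below thymus in 6 WT T-ALL libraries (3, 14, 108, 111, 120 and 126). WT T-ALL 110 stood apart in another way, with the highest Gimap3 of all tumors and Gimap4 above thymus, in a library with the lowest pan-T mean (6.90) and the highest neutrophil marker mean (11.86) of the series. Without WT T-ALL 110 the Gimap3 difference from thymus was -3.15, and the part of neutrophil RNA in its values was not tested.

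**Figure D3:**
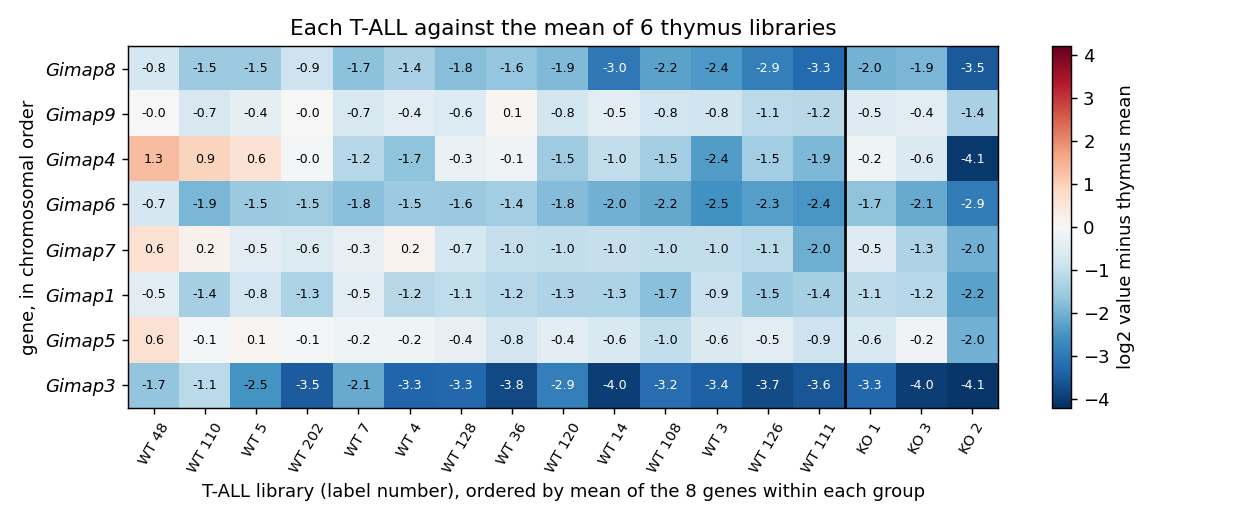
Each T-ALL library against thymus. Cells give the log2 value minus the mean of 6 thymus libraries for the 8 Gimap genes in chromosomal order, with 14 WT T-ALL libraries on the left and 3 Notch3 KO T-ALL libraries on the right, ordered by the mean of the 8 genes. Blue is below and red above the thymus mean. Gimap3 is blue throughout, while Gimap4 is red in WT T-ALL 48, 110 and 5.

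The members varied together among the 14 WT T-ALL libraries. Pearson r was above 0 for all 28 pairs of members, from 0.11 (Gimap3 with Gimap9) to 0.84 (Gimap6 with Gimap8), with a median of 0.65, and Spearman rho ran from 0.07 to 0.93. Without the 2 libraries farthest from the median, r ran from -0.06 to 0.86 with a median of 0.45. The points share each library's scaling and its share of leukemic cells. Among 11676 other genes, the one closest to Gimap5 was Gimap7 and the reverse (r = 0.83), and the one closest to Gimap8 was Gimap6. For the other 5 members the closest gene was not a Gimap gene, and the closest member ranked 7 for Gimap6, 59 for Gimap9, 86 for Gimap4, 105 for Gimap3 and 192 for Gimap1.

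Outside the cluster, the genes whose pattern over the 14 WT T-ALL libraries was most like the members' mean were Ms4a4b (r = 0.87, rho = 0.71), Gbp4 (r = 0.84, rho = 0.85), Igtp (r = 0.84, rho = 0.78), Gbp3 (r = 0.84, rho = 0.72) and Gbp8 (r = 0.83, rho = 0.86). Without WT T-ALL 48 and 111, r was 0.70 to 0.82. From thymus to WT T-ALL the means of Ms4a4b, Gbp4, Igtp and Gbp8 went down (6.23 to 2.99, 5.89 to 3.69, 5.85 to 4.73 and 6.62 to 3.69), and that of Gbp3 went from 1.93 to 2.82.

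Other T-cell genes give the setting of these values. The counts below stand beside 22.3% of all genes tested called lower in WT T-ALL against thymus, and 16.3% in Notch3 KO T-ALL. Of 16 genes of mature or quiescent T cells, 13 fell in WT T-ALL, with a median difference of -1.12, and 13 fell in Notch3 KO T-ALL with a median of -1.54. The largest changes in WT T-ALL were those of Ms4a4b (-3.24), the chemokine receptor Ccr7 (-2.61) and S1pr1 (-2.50), the receptor by which T cells leave the thymus. In Notch3 KO T-ALL these were again Ms4a4b (-4.60), S1pr1 (-3.17) and Ccr7 (-2.92). Among 10 genes of double-positive thymocytes 9 fell in both comparisons, led in WT T-ALL by Ccr9 (-4.80), Cd4 (-4.30) and the recombinase gene Rag1 (-3.63), and in Notch3 KO T-ALL by Rag1 (-4.37), Rag2 (-3.53) and Cd8b1 (-3.47).

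The 10 pan-T genes changed less. In WT T-ALL 5 of them fell, with a median difference of -0.38 and the largest falls for Cd5 (-1.86), the signaling chain Cd247 (-1.53) and the kinase Lck (-0.90). In Notch3 KO T-ALL 3 fell, again Cd5 (-2.15), Cd247 (-1.45) and Lck (-0.81), with a median of -0.44. Over all genes tested, 22.3% were called lower in WT T-ALL and 16.3% in Notch3 KO T-ALL. When every library was centered on the mean of these 10 genes, the median of all genes moved from 0.08 to 0.68 (WT T-ALL) and 0.78 (Notch3 KO T-ALL), and the medians of the Gimap genes became -0.33 and -0.86. Gimap5 (0.25) and Gimap9 (0.05) then had positive differences in WT T-ALL, both below that median of all genes, and Gimap1, Gimap3, Gimap6 and Gimap8 were still called lower in both comparisons.

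Over the 14 WT T-ALL libraries, the mean of the 8 Gimap genes went with the mean of the 16 mature or quiescent T-cell genes (Pearson r = 0.87, Spearman rho = 0.85, and r = 0.92 without WT T-ALL 36 and 48). Its relation to the pan-T mean was weak (r = 0.21, rho = 0.15, r = 0.18 without WT T-ALL 48 and 110). For the erythroid mean r was -0.32 and rho -0.39, with r = -0.21 without WT T-ALL 7 and 108. These are descriptions over libraries that share scaling and leukemic share, and no test was made.

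**Figure D4:**
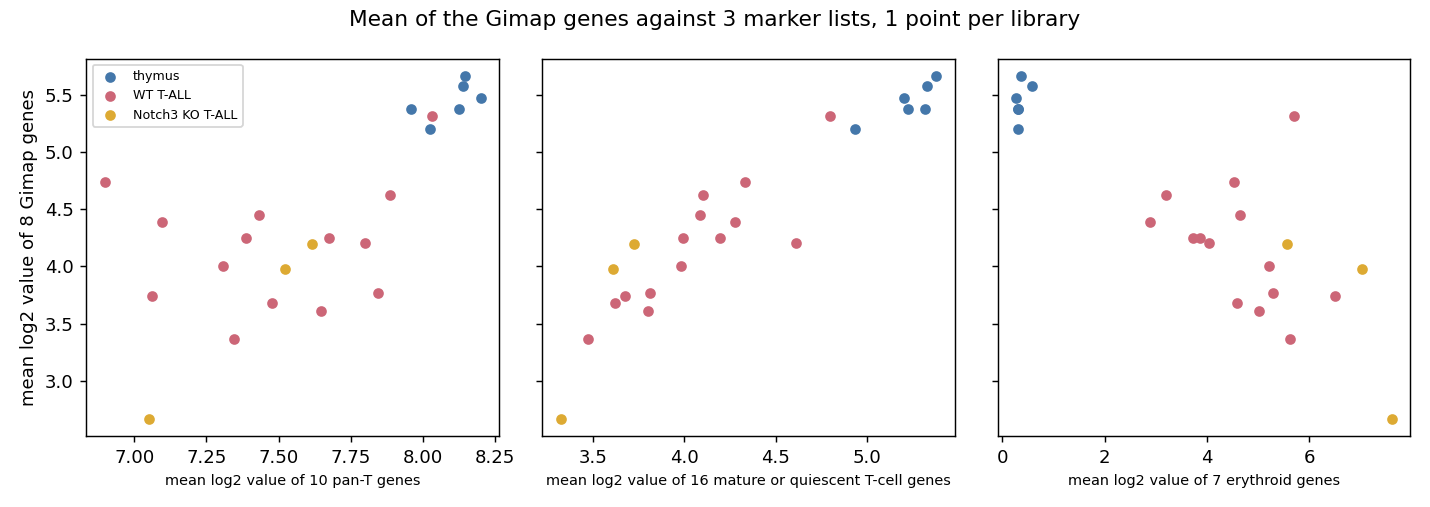
Mean log2 value of the 8 Gimap genes (vertical axis) against the mean log2 value of 10 pan-T genes, 16 mature or quiescent T-cell genes and 7 erythroid genes (horizontal axes), 1 point per library. Among WT T-ALL the points rise with the mature or quiescent list, and thymus is separate from all T-ALL on the erythroid axis.

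Markers of other cells moved with the groups. They are given as summed scaled RPKM, lowest to highest library of thymus, WT T-ALL and Notch3 KO T-ALL in that order, with no counts of genes called, since many of these genes passed the filter on low values only through the group where they are high. The 7 erythroid genes found of 8 listed had sums of 2.04 to 5.42, 46.8 to 767.6 and 405.9 to 2042, so thymus was separate from both T-ALL groups. Notch3 KO T-ALL 2, the library lowest in the Gimap genes, had the highest erythroid mean of all (7.61 on the log2 scale). The 5 megakaryocyte genes were likewise separate, at 0.705 to 1.27, 4.18 to 200.2 and 60.9 to 185.2, as were the 5 stromal genes at 0.0932 to 0.716, 0.803 to 97.7 and, for Notch3 KO T-ALL, a median of 17.1 and a highest value of 34.9. Sums of the 7 macrophage genes were 8.51 to 52.3, 19.9 to 306.4 and 227.7 to 320.1, and those of the 7 neutrophil genes 57.1 to 529.8, 635.8 to 84321 and 201.8 to 7564. Thymus was the highest group for the 6 B-cell genes, at 18.2 to 24.3, 0.813 to 6.44 and 1.68 to 4.03, with Pax5 listed at 0 in Notch3 KO T-ALL. The 5 natural killer cell genes were at 3.46 to 8.37, 0.268 to 4.99 and 0.194 to 1.91, with Ncr1 and Klre1 listed at 0 in Notch3 KO T-ALL. Sums of the 6 endothelial genes overlapped between groups, at 31.7 to 37.6, 19.5 to 42.1 and 24.6 to 34.9, and Tie1 was listed at 0 in thymus. Their mean log2 values were 0.88 to 0.95, 0.89 to 1.57 and 1.30 to 1.75, so Notch3 KO T-ALL was above thymus on that measure. Sums of the 6 thymic epithelial genes also overlapped, at 3.59 to 5.91, 2.32 to 9.26 and 2.65 to 5.13, with Foxn1, Psmb11 and Krt5 listed at 0 in Notch3 KO T-ALL. Here the mean log2 values were 0.49 to 0.80, 0.30 to 0.72 and 0.34 to 0.45, so Notch3 KO T-ALL was below thymus on that measure. The part of these cells in the Gimap differences was not tested, and with the erythroid mean as a covariate no member was called in any comparison.

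The genes around the cluster gave a local comparison. Of the 10 genes nearest on each side, 4 per side passed the filter in the fit of all 3 groups. The 4 before Gimap8 all fell in both comparisons: the leucine-rich repeat gene Lrrc61 (-1.10 and -1.14), Gm5111 (-1.11 and -1.14), and the zinc finger genes Repin1 (-1.20 and -1.58) and Zfp775 (-0.97 and -1.03), the nearest of them 25.6 kb from Gimap8. Gm5111 and Zfp775 passed the filter only through thymus, where they are high, so their falls are not independent of the filter. Among all genes tested, the shares called lower were 22.3% in WT T-ALL and 16.3% in Notch3 KO T-ALL. None of the 4 tested beyond Gimap3 was called. The closest of these were Tmem176b, 63.0 kb away, with differences of 0.79 (SE 0.56) and 1.00 (SE 0.81), and Tmem176a with 0.74 (SE 0.51) and 1.27 (SE 0.74). Whether the groups of neighbors differ in their change was not tested.

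**Figure D5:**
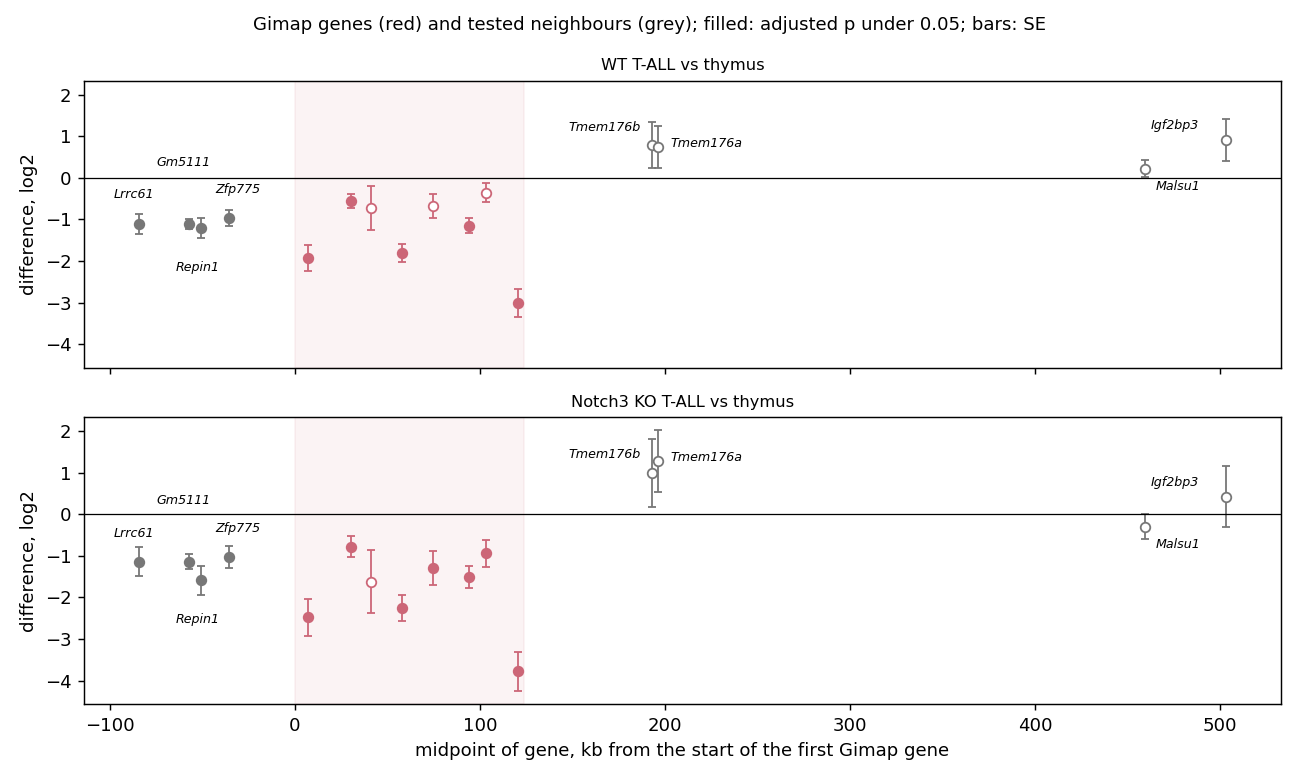
Differences from thymus along the region, WT T-ALL above and Notch3 KO T-ALL below. The horizontal axis is the distance of each gene's midpoint from the start of Gimap8 in kb, the vertical axis the difference in log2(scaled RPKM + 1), bars are SE from limma, red marks Gimap genes, grey the 8 tested neighbors, and filled points have an adjusted p under 0.05. The 4 neighbors before the cluster are filled and below 0, and the 4 after it are open.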

How the data were processed

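The deposited values were read as log2(RPKM + 1). They were made by the authors from 100-base paired-end reads of stranded mRNA libraries. Alignment and quantification per gene ran in ArrayStudio, using OSA and mm10 transcripts. Versions and whether counting used strand are not given in the sources used here. The header names no unit. Every column had a minimum of 0 and a 75th percentile near log2 of 10 plus 1. RPKM was taken from the study's use of it in a figure legend, where it is defined for human data, so the unit is not certain. The scaling sets each gene against all others in the library, so a large change of other cells moves every gene. Precision is limited by the number of libraries, since the table holds no counts. A spreadsheet had turned 27 symbols into dates, restored by identifier.

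The filter kept genes whose scaled RPKM was 1 or more in 3 or more fitted libraries (11919, or 11677 for the T-ALL groups alone). Groups came from the labels. limma 3.58.1 in R 4.3.3 (lmFit, eBayes with trend and robust) was fitted to 3 groups for the comparisons with thymus and to the T-ALL groups for the third. Single genes were also tested by two-sided exact permutation of the absolute difference in means over all 38760, 84 and 680 splits, whose smallest p is 2.58e-05, 0.0119 and 0.00147. Both procedures were tested on simulated data. Figures and summaries used pandas 2.3.3, numpy 2.4.6, scipy 1.17.1 and matplotlib 3.10.9. Promoters and positions came from RefSeq and GENCODE M21 on GRCm38.p6.

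The members and lists were chosen with earlier results of these data known. Named genes were all members, the called neighbors, the 5 non-member genes of highest Pearson r with the members' mean over WT T-ALL, and the 3 called genes of largest difference in the pan-T, mature or quiescent and double-positive lists. The tested neighbors that were not called and markers listed at 0 were named after their values were seen. The result of 1 listed gene is not reported here. Alternatives were other scalings, offset, filters, fits, an erythroid covariate, a replicate block, leaving out each library, and thymus libraries averaged in pairs, the last chosen after seeing the data.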

Additional observations from a re-analysis of the deposited data

How the results depend on the processing

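The count of 5 members called lower in WT T-ALL against thymus was 5 or 6 with quantile normalization, an offset of 0.1, no filter, a filter at 5, only the compared groups in the fit and each library left out. It was 4 when centered on pan-T genes. For Notch3 KO T-ALL the count of 7 became 4 when centered on pan-T genes, 4 with thymus libraries averaged in pairs (1 with 3, 2 with 4 and 5 with 6, which deviate together at r = 0.67, 0.62 and 0.57, while the labels name no batch), and 4 to 8 with 1 library left out, 4 without Notch3 KO T-ALL 2. The averaging gave 4 in WT T-ALL, where Gimap9 was lost (adjusted p = 0.0791). Over all genes it called 3681 in place of 6150 and 2919 in place of 4475. The count between the T-ALL groups was 0 in every setting run, while the genes called over the whole table ran from 3 to 254 around 72.

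The erythroid covariate gave 0 members in both comparisons with thymus. Thymus and T-ALL do not overlap on it, so it takes up the group difference itself, and the genes called over the whole table went from 6150 to 407 and from 4475 to 24. Differences then changed sign for Gimap4 (0.87), Gimap5 (0.41) and Gimap7 (0.39) in WT T-ALL against thymus, for Gimap1 (0.0074), Gimap4 (0.77), Gimap5 (0.21) and Gimap7 (0.30) in Notch3 KO T-ALL against thymus, and for Gimap1 (0.15), Gimap8 (0.074) and Gimap9 (0.039) between the T-ALL groups. Centering on pan-T genes turned Gimap5 (0.25) and Gimap9 (0.047) in WT T-ALL, both below the median of all genes in that setting (0.68). Leaving out single libraries moved the difference between the T-ALL groups from -0.57 to 0.0070 for Gimap1, from -1.60 to 0.33 for Gimap4 and from -0.39 to 0.070 for Gimap9, each positive only without Notch3 KO T-ALL 2.

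With a replicate block over libraries that share a label number, 4 members were called in WT T-ALL, where Gimap9 was lost (adjusted p = 0.197), and 7 in Notch3 KO T-ALL. Over all genes the block called 1942 in place of 6150 and 3630 in place of 4475. Same-numbered libraries deviated together at r = -0.24 to 0.15, so the numbers were not taken to pair the samples. No paired analysis was possible between the T-ALL groups because they share 1 number. No read depth per library was known, so detection limits are not given.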
